A study of Homo sapiens with 9 samples.

Results

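The extracellular matrix genes described here are 47 human genes for collagens, laminins, nidogens, proteoglycans, adhesive glycoproteins, elastic fibre proteins, lysyl oxidases and a few further secreted matrix proteins. They were listed by symbol with earlier results of these data known, so the choice was not blind to level or change. Each was found by its Ensembl gene ID among the 57757 genes of the count table. RNA was sequenced from NLF, an established human neuroblastoma cell line that the labels describe as neural crest and wild type. Cells were treated for 48 hours with siRNA of 1 of 3 kinds: a non-targeting control (siNTC), one directed at the T-box transcription factor gene TBX2 (siTBX2), or one directed at TBX2-AS1, the long noncoding RNA transcribed antisense to it (siTBX2-AS1). Each of the 3 groups had 3 biological replicates, and the comparisons address how lowering either transcript affects gene expression. All libraries come from 1 cell line, and the number and sequence of the siRNAs are not given in the sources used here, so an effect of a target and an effect of its siRNA on other RNAs cannot be told apart.

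The extracellular matrix is the protein and polysaccharide mesh that cells secrete around themselves. Fibrillar collagens give it tensile strength after lysyl oxidases cross-link them, laminins and nidogens build the basement membrane, fibronectin and matricellular proteins connect the mesh to integrins on the cell surface, and hyaluronan with its binding proteoglycans keeps it hydrated. In neuroblastoma, cells of the noradrenergic (adrenergic) state resemble sympathetic neuroblasts, and cells of the mesenchymal state express more matrix genes.

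Libraries held 31894280 to 51434090 counts. In siTBX2, TBX2 fell to 44.9% of its siNTC level (log2 fold change -1.15, SE 0.11, adjusted p = 0.00734), and in siTBX2-AS1, TBX2-AS1 fell to 10.4% (-3.25, SE 0.57, adjusted p = 0.0184). Adjusted p values are those of edgeR's quasi-likelihood test over 18367 tested genes, with adjustment by the method of Benjamini and Hochberg, and a gene is said to rise or fall where its adjusted p was under 0.05. The call of TBX2-AS1 was lost without siNTC replicate 1 (adjusted p = 0.0531), siNTC replicate 3 (0.0505) or siTBX2-AS1 replicate 1 (0.0651). TBX2 was also lower in siTBX2-AS1, at 80.3% of siNTC, without a call (log2 fold change -0.32, SE 0.11, adjusted p = 0.172). Its libraries in these groups did not overlap, as was so for 24% of all genes. TBX2-AS1 in siTBX2 was at 98% of siNTC (adjusted p = 0.989). Adrenergic markers were present in part. Of 13, 12 were tested, with the transcription factor gene HAND2 at 205 CPM (counts scaled to library size) and ISL1 at 91.3 in siNTC. The genes of catecholamine synthesis and storage were low or absent, with DBH at 0.672, CHGA at 0.541 and CHGB at 0.289 CPM in siNTC and TH at 0 in every library, while DDC was at 21.5 CPM. Of 10 mesenchymal-state markers 8 were tested, with VIM at 1427 CPM, and the hyaluronan receptor gene CD44 did not exceed 0.064 CPM in any library.

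Many of the matrix genes were well expressed in control cells. Of the 47 genes, 41 passed the filter on low counts, and 22 of these had a mean above 10 FPKM in siNTC, a scale that divides by transcript length and so allows genes to be compared. FN1, which encodes the adhesive glycoprotein fibronectin, had the highest mean, 138 ± 10.1 FPKM (SD, n = 3, as for every mean given here). COL3A1, the chain of collagen III, followed at 115 ± 24 FPKM, and the collagen-binding matricellular protein gene SPARC at 53.8 ± 49.1. LAMB1, the laminin beta 1 chain, stood at 48 ± 1.29 FPKM and COL6A3, a chain of the beaded-filament collagen VI, at 40.7 ± 6.23. The order below FN1 and COL3A1 is loose, since the SD of SPARC spans the means of LAMB1, COL6A3 and POSTN (38.5 ± 15.8 FPKM).

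**Figure D1:**
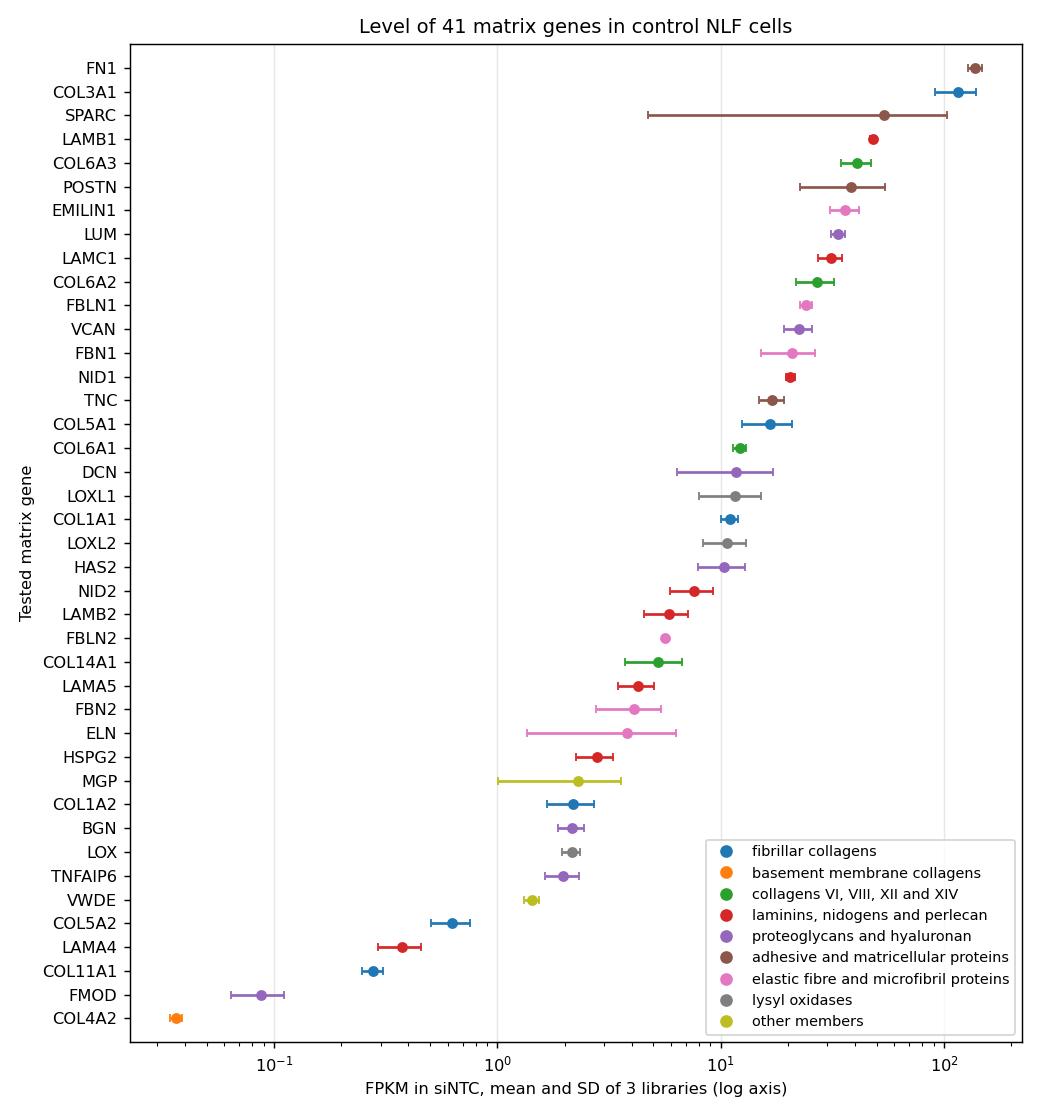
Level of the 41 tested matrix genes in siNTC, as the mean FPKM of 3 libraries (log axis) with SD bars, coloured by role. FN1 (138 FPKM) and COL3A1 (115 FPKM) lead, and COL4A2 (0.0365 FPKM) is lowest.

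Chains that assemble into the same protein were at unequal levels in siNTC. COL1A1, the gene of the alpha 1 chain of collagen I, stood at 11 ± 0.974 FPKM and its partner COL1A2 at 2.19 ± 0.516. Of collagen VI, COL6A3 was followed by COL6A2 at 27 ± 5.2 and COL6A1 at 12.2 ± 0.813 FPKM. Among laminin chains, LAMB1 and LAMC1 (31.1 ± 3.88 FPKM) were above LAMB2 (5.85 ± 1.31) and above the alpha chains LAMA5 (4.26 ± 0.785) and LAMA4 (0.375 ± 0.0819). The basement membrane collagen chains COL4A1 and COL4A2, neighbours on chromosome 13, were near absent: COL4A1 is listed at 0 counts in all 9 libraries and COL4A2 had a mean of 0.0365 ± 0.00208 FPKM.

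The 6 genes that were not tested were COL4A1, THBS1 and FBLN5, listed at 0 in every library, COL8A1 with 2 counts in all, THBS2 with 3, and COL12A1 with 65, at most 17 in a library. THBS1 and THBS2 encode thrombospondins and FBLN5 an elastic fibre fibulin. COL4A2 passed the filter only through siNTC, where 3 libraries reached 0.228 CPM, against none in siTBX2 and siTBX2-AS1, so it could hardly have been tested without differing. COL11A1 and FMOD reached that level in 3, 2 and 3 libraries of siNTC, siTBX2 and siTBX2-AS1, and the other 38 tested genes reached it in all 9.

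In siTBX2, a small number of genes for secreted matrix proteins fell and no matrix gene rose. POSTN, TNFAIP6, VWDE and LUM were called, to between 26.7% and 66.5% of their siNTC levels. These 4 calls among 41 tested genes stand beside 295 of 18367 genes over the whole transcriptome, or 1.61% (0.811% fell and 0.795% rose). The median log2 fold change of the 41 genes was -0.06, against 0.00 for all genes, and the median absolute change was 0.19 against 0.20 for all genes. Fewer cells of a type and less RNA per cell cannot be told apart in bulk libraries. At an unadjusted p under 0.05 there were 13 of 41 matrix genes and 2945 of all genes (16%), and in 13 of 41 the libraries of the 2 groups did not overlap, beside 22.8% of all genes.

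POSTN, the gene of periostin, a matricellular protein that binds integrins and collagen (ENSG00000133110.10, chromosome 13), was at 206, 129.9 and 96.5 CPM in siNTC replicates 1, 2 and 3, at 49.2, 39.5 and 26.6 in siTBX2, and at 160.2, 127 and 86.4 in siTBX2-AS1. All siTBX2 libraries lay below all others, and replicate 1 was highest and replicate 3 lowest in each group. The log2 fold change in siTBX2 was -1.90 (SE 0.35, adjusted p = 0.0443). Within replicate numbers 1, 2 and 3 it was -2.06, -1.72 and -1.86, and with the replicate number as a block in the fit the SE dropped to 0.08 and the adjusted p to 0.00404.

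TNFAIP6, the gene of TSG-6, which transfers protein chains onto hyaluronan (ENSG00000123610.3, chromosome 2), was at 3.73, 5.66 and 3.94 CPM in siNTC, at 1.38, 1.98 and 1.67 in siTBX2 and at 5.54, 7.77 and 5.4 in siTBX2-AS1. The siTBX2 libraries did not overlap those of either other group (log2 fold change -1.41, SE 0.24, adjusted p = 0.0326). VWDE, the gene of a secreted protein with von Willebrand factor D and EGF domains (ENSG00000146530.7, chromosome 7), was at 9.26, 11.6 and 10.3 CPM in siNTC, at 3.31, 3.56 and 3.88 in siTBX2 and at 14.2, 16.3 and 16.5 in siTBX2-AS1. Its 3 groups did not overlap at all, with siTBX2 lowest and siTBX2-AS1 highest (siTBX2 against siNTC: log2 fold change -1.53, SE 0.13, adjusted p = 0.00589). LUM, the gene of the collagen-binding proteoglycan lumican (ENSG00000139329.4, chromosome 12), was at 126.7, 127.8 and 127.8 CPM in siNTC, at 73.9, 88.2 and 92 in siTBX2 and at 100.9, 119.7 and 105.4 in siTBX2-AS1. It fell by 0.59 on the log2 scale in siTBX2 (SE 0.10, adjusted p = 0.0315), from control libraries that lay closer together than those of any other matrix gene (coefficient of variation 0.46%).

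**Figure D2:**
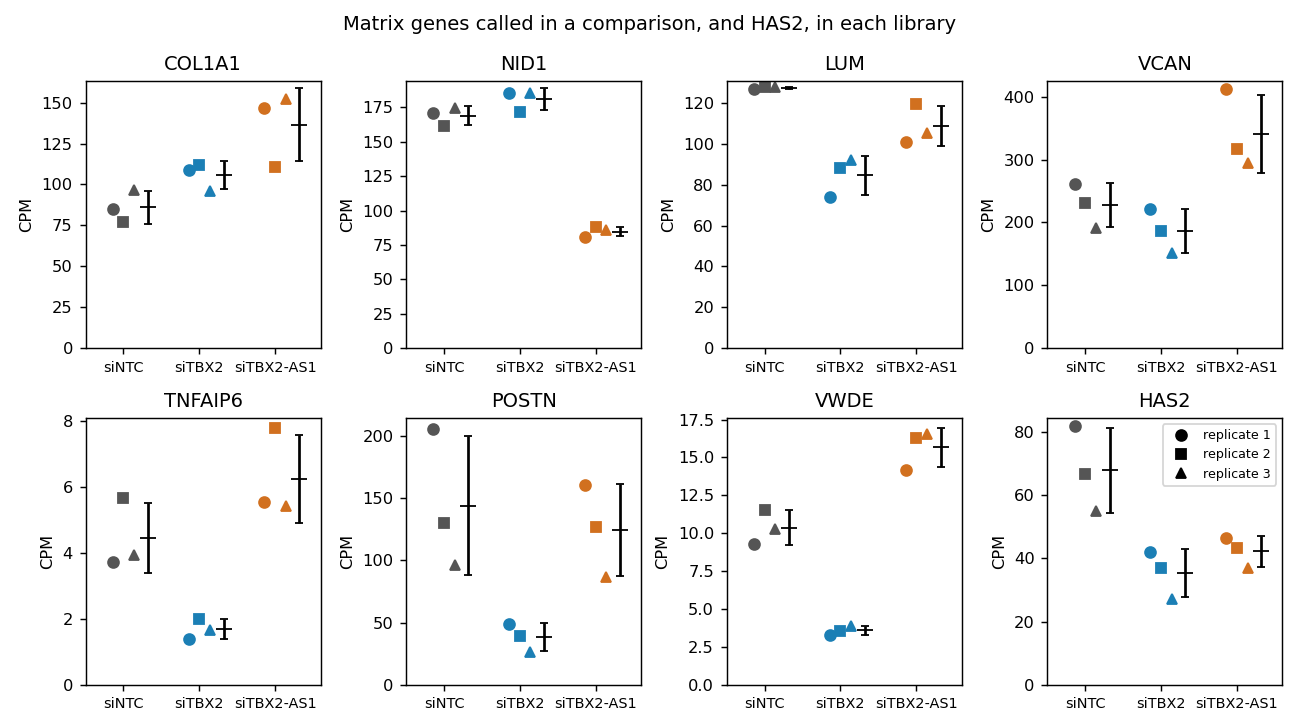
CPM of the 7 matrix genes called in any comparison, and of HAS2, in each of the 9 libraries (linear axes from 0; marker shapes give the replicate number; the bar beside each group is the mean with SD). POSTN, TNFAIP6 and VWDE are low in siTBX2 alone, and NID1 is low in siTBX2-AS1 alone.

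The call of VWDE held without each library in turn. POSTN lost its call without any single one of the 9 libraries (adjusted p = 0.0572 to 0.127), LUM without any library except siTBX2-AS1 replicate 1 or 2 (0.0429 to 0.0998 over the 9 fits) and TNFAIP6 without any except siTBX2-AS1 replicate 2 or 3 (0.0447 to 0.118), all with the direction kept.

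The bases upstream of POSTN, TNFAIP6 and VWDE are shown because these genes were low together in siTBX2. They are from RefSeq on GRCh38.p14, 5′ to 3′ on the gene's strand, ending at the first base before the gene in GENCODE release 29, with matches to searched motifs in capitals: TGAGTCA, the AP-1 site, in the first 2 and GGGCGG, the GC box, in VWDE. POSTN is chr13:37598845-37599018 on the minus strand, TNFAIP6 chr2:151357342-151357591 on the plus strand and VWDE chr7:12403942-12404115 on the minus strand.
POSTN: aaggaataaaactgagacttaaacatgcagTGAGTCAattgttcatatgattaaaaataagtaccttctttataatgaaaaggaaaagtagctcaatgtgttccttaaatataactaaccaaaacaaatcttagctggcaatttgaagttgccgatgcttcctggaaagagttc
TNFAIP6: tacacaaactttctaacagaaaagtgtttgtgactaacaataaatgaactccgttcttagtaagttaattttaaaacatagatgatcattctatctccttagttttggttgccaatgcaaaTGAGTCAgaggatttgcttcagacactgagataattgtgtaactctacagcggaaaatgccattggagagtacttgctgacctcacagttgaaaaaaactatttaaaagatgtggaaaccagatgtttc
VWDE: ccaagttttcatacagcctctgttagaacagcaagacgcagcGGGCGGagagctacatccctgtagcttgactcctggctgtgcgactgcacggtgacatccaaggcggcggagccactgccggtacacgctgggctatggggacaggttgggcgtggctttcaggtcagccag

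Motifs were counted over wider windows. Among 33 of the 47 genes with a RefSeq promoter, searched over the 250 bases before the start, none held the T-box core GGTGTGA on either strand, which 2.76% of 35116 promoters held. The AP-1 site TGAGTCA was in TNFAIP6 and POSTN only, 129 and 220 bases before the start, against 4.2% of promoters (both strands). TATAAA on the gene's strand was in COL6A2, POSTN, THBS2 and FBLN5, against 6.8%, and in POSTN it lay 29 bases before the start, outside the stretch shown. The GC box was in 25 of the 33, against 42.6% of promoters, the TEAD site GGAATG in 5, against 11.9%, and the E-box CACCTG in 2, against 17.5%. LUM and COL1A1 had no entry. A matrix gene was counted if any of its promoter entries held the motif, while the 35116 are single entries, so these shares are not the same measure.

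Among the proteoglycan and hyaluronan genes, all 7 had a negative log2 fold change in siTBX2 (median -0.52, against 0.00 for all genes), of which TNFAIP6 and LUM were called. The roles were drawn up with earlier results known, so a shared sign within a role is a description. HAS2, which synthesizes hyaluronan, was at 81.7, 66.8 and 55.1 CPM in siNTC and at 41.9, 36.9 and 27.3 in siTBX2, without overlap, but was just outside the threshold (log2 fold change -0.94, SE 0.19, adjusted p = 0.0545). With the replicate number as a block HAS2 was called (-0.94, SE 0.08, adjusted p = 0.00988), as was the large hyaluronan-binding proteoglycan gene VCAN (-0.29, SE 0.06, adjusted p = 0.0426). BGN, the gene of biglycan, was at 6.89, 7.01 and 9.26 CPM in siNTC and at 5.9, 5.35 and 4.85 in siTBX2, with no overlap and no call (-0.52, adjusted p = 0.196). The small leucine-rich proteoglycan genes DCN (-0.44, adjusted p = 0.731) and FMOD (-0.09, adjusted p = 0.954) completed the group.

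All 6 tested elastic fibre and microfibril genes had a positive log2 fold change in siTBX2, some close to 0, from 0.02 to 0.39 (median 0.22), and none was called. This shared sign too is a description. By unadjusted p under 0.05 there were 2 (FBN2 and FBLN2), by DESeq2 1 and by limma-voom 0. FBN2, a fibrillin, stood at 0.39 (SE 0.08, adjusted p = 0.0648) and was called with the block (adjusted p = 0.0465), and so was the fibrillin gene FBN1 (0.32, SE 0.25, adjusted p = 0.614, against SE 0.05 and adjusted p = 0.0217 with the block). FBLN2 was at 0.25, EMILIN1 at 0.19, FBLN1 at 0.05 and ELN at 0.02.

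Fibrillar collagens had no call in siTBX2 among 6 tested, 1 by unadjusted p and 0 by DESeq2 or limma-voom. COL11A1 was at 0.824, 0.905 and 0.588 CPM in siNTC and at 0.212, 0.502 and 0.373 in siTBX2, from counts of at most 42 (log2 fold change -1.09, SE 0.36, adjusted p = 0.184). COL1A2 was at -0.75 (SE 0.35, adjusted p = 0.334) and COL1A1 at 0.30 (SE 0.14, adjusted p = 0.335), opposite signs for the chains of collagen I. COL3A1 (0.03), COL5A1 (0.07) and COL5A2 (-0.08) lay near 0. COL4A2 had 19, 13 and 15 counts in siNTC and 5, 7 and 4 in siTBX2 (-1.48, SE 0.40, adjusted p = 0.117).

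The remaining roles had POSTN and VWDE as their sole calls in siTBX2. COL6A1 (0.38), COL6A2 (0.16), COL6A3 (-0.09) and the fibril-associated COL14A1 (-0.50) were not called, although the block called COL6A1 (adjusted p = 0.0421) and COL14A1 (adjusted p = 0.0459). With POSTN, LUM, TNFAIP6, VWDE, HAS2, VCAN, FBN2 and FBN1 this made 10 called matrix genes with the block, beside 873 genes in all, or 4.75%. LAMA4, a laminin alpha chain, was at 2.26, 2.27 and 2.01 CPM in siNTC and at 1.17, 0.98 and 1.43 in siTBX2 (-0.87, SE 0.21, adjusted p = 0.0918; 0.018 by DESeq2). The other laminin, nidogen and perlecan genes lay between -0.29 (LAMB2) and 0.10 (NID1). FN1 was at 1307, 1396 and 1204 CPM in siNTC and at 1489.7, 1475 and 1413 in siTBX2, a step of 0.16 without overlap and without a call (adjusted p = 0.334). TNC (-0.06), SPARC (0.04), LOX (0.05), LOXL1 (-0.16), LOXL2 (-0.03) and MGP (0.65, SE 0.63) were not called either.

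In siTBX2-AS1, the basement membrane linker NID1 fell to 50.2% of its control level and the collagen I gene COL1A1 and VWDE rose. These 3 calls among 41 matrix genes stand beside 840 of 18367 genes, or 4.57% (2.78% fell and 1.79% rose). The median log2 fold change was 0.07, against 0.01 for all genes, and the median absolute change was 0.26 against 0.22. At an unadjusted p under 0.05 there were 12 of 41, against 18.4% of all genes, and the libraries of 13 did not overlap, against 24% of all genes.

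NID1, the gene of nidogen 1, which links laminin to collagen IV (ENSG00000116962.10, chromosome 1), was at 171, 161.3 and 174.5 CPM in siNTC, at 185.7, 171.9 and 185.2 in siTBX2 and at 80.8, 87.7 and 85.7 in siTBX2-AS1. The siTBX2-AS1 libraries were all far below the others (log2 fold change -0.996, SE 0.07, adjusted p = 0.000315), and the call held without each library in turn. Its paralog NID2, whose exons overlap those of the antisense gene RTRAF, stood at 0.04 (SE 0.15, adjusted p = 0.924), and the laminin chains LAMB1 (0.16), LAMC1 (0.13), LAMB2 (-0.20) and LAMA5 (-0.26) were not called. LAMB1 was at 304, 280.8 and 297.2 CPM in siNTC, at 296, 289.3 and 273.2 in siTBX2 and at 344, 327.1 and 317.1 in siTBX2-AS1, where it lay above both other groups without a call (adjusted p = 0.199). LAMA4 was at 1.31, 1.27 and 1.74 CPM in siTBX2-AS1, below siNTC (-0.60, SE 0.21, adjusted p = 0.17), and HSPG2, the gene of perlecan, was at 0.44 (adjusted p = 0.353).

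COL1A1 (ENSG00000108821.9, chromosome 17) was at 84.9, 76.8 and 96.8 CPM in siNTC, at 109.1, 112 and 96.2 in siTBX2 and at 146.7, 110.8 and 152.2 in siTBX2-AS1. All siTBX2-AS1 libraries were above all siNTC libraries (log2 fold change 0.66, SE 0.14, adjusted p = 0.0321), and replicate 2 of siTBX2-AS1 overlapped siTBX2. The call was kept without siTBX2-AS1 replicate 2 (adjusted p = 0.016), siNTC replicate 3 (0.0483) or siTBX2 replicate 3 (0.0459) and lost without any other library (0.0585 to 0.124). COL1A2 was at 0.44 (SE 0.34, adjusted p = 0.577), the fibrillar COL5A1 (0.28), COL3A1 (0.12) and COL5A2 (-0.28) had no call, and COL11A1 was at 0.406, 0.456 and 0.31 CPM (-0.97, adjusted p = 0.189). VWDE rose by a log2 fold change of 0.60 (SE 0.13, adjusted p = 0.0393), a call that leaving out any single library ended (0.0535 to 0.12).

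**Figure D3:**
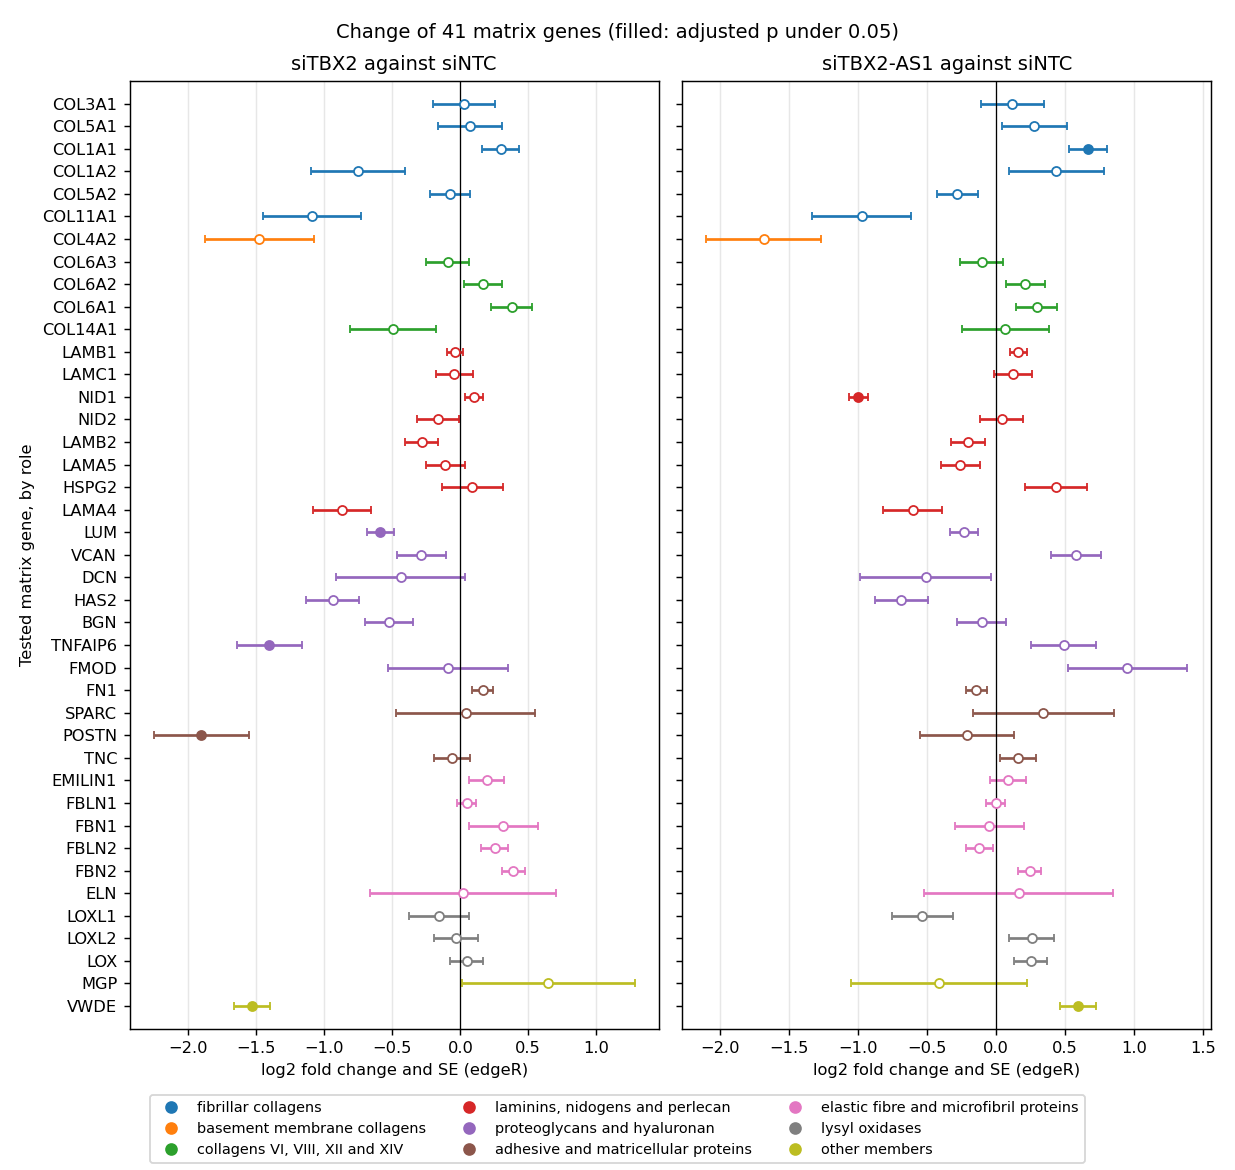
Log2 fold change with SE of the 41 tested matrix genes against siNTC, in siTBX2 (left) and siTBX2-AS1 (right), grouped and coloured by role; filled points had an adjusted p under 0.05. Both panels use the same siNTC libraries, so they are not independent.

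Among proteoglycan and hyaluronan genes in siTBX2-AS1, none of 7 was called by edgeR, 3 had an unadjusted p under 0.05, DESeq2 called 1 and limma-voom 0. VCAN was at 261.5, 230.3 and 191.9 CPM in siNTC and at 412.1, 317 and 294.1 in siTBX2-AS1, without overlap (log2 fold change 0.58, SE 0.18, adjusted p = 0.118). HAS2 was at 46.5, 43.4 and 36.9 CPM in siTBX2-AS1, below all siNTC libraries (-0.68, SE 0.19, adjusted p = 0.0894). With the block both were called (VCAN 0.58, adjusted p = 0.00424; HAS2 -0.67, adjusted p = 0.00655), as were DCN (-0.56, adjusted p = 0.0196) and TNFAIP6 (0.50, adjusted p = 0.0489). Together with COL6A2 (0.22, adjusted p = 0.0351), NID1, COL1A1 and VWDE the block called 8 matrix genes, beside 1741 genes in all, or 9.48%. FMOD (0.95, SE 0.43) and BGN (-0.10) had no call. Exons of VCAN and HAS2 overlap antisense genes, VCAN-AS1 over 453 bp and HAS2-AS1 over 201 bp. Larger overlaps are those of HSPG2 with LDLRAD2 (2121 bp) and NID2 with RTRAF (1915 bp), and shorter ones touch LOXL1, SPARC, LAMA4, LAMA5, LAMB1, COL4A2, TNC, FBN2, ELN, LOX, LOXL2 and MGP. The use of strand in counting is not given in the sources used here, so reads of these pairs cannot be told apart.

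The other roles had no call in siTBX2-AS1. Of the elastic fibre genes, FBN2 was at 0.25 (adjusted p = 0.159) and the other 5 lay between -0.12 and 0.17. LOXL1 was at 28.2, 25.1 and 40.4 CPM in siNTC and at 20.1, 22.4 and 22.3 in siTBX2-AS1, without overlap (-0.53, SE 0.22, adjusted p = 0.245), while LOX (0.25) and LOXL2 (0.26) were above 0. COL4A2 had 6, 5 and 2 counts (-1.68, SE 0.42, adjusted p = 0.06; 0.0474 by limma-voom). POSTN (-0.21), SPARC (0.34), TNC (0.16), FN1 (-0.14), LUM (-0.23), MGP (-0.41), COL6A1 (0.29), COL6A3 (-0.10) and COL14A1 (0.07) made up the rest.

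Set directly against each other, the knockdowns differed in 5 matrix genes. VWDE (log2 fold change of siTBX2-AS1 over siTBX2 2.13, SE 0.14, adjusted p = 0.000257), TNFAIP6 (1.90, SE 0.24, adjusted p = 0.00385), POSTN (1.69, SE 0.35, adjusted p = 0.0292) and VCAN (0.87, SE 0.18, adjusted p = 0.0288) were higher in siTBX2-AS1, and NID1 was lower (-1.09, SE 0.07, adjusted p = 0.000257). Over all genes 1015 were called, or 5.53% (2.03% higher and 3.5% lower), and the libraries of 14 matrix genes did not overlap, against 26.7% of all genes. The median over the 41 genes was 0.17, against 0.01 for all genes. VCAN was at 221.5, 186.8 and 151.9 CPM in siTBX2, so its siTBX2-AS1 libraries lay above all others. VWDE, TNFAIP6 and NID1 kept their calls without each library in turn. VCAN kept its call without siNTC replicate 1, siNTC replicate 3, siTBX2 replicate 1 or siTBX2-AS1 replicate 3 and POSTN without the first 2 and the last of these. Without any other library both calls were lost (adjusted p = 0.0547 to 0.0903 for VCAN and 0.053 to 0.0977 for POSTN).

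The 3′ UTR sequences around short motifs are shown because the motifs are frequent in the 3′ UTRs of genes that fell. CAGAATG was in 51.1% of searched genes that fell in siTBX2, against 19.3% of 13175 tested genes, and TTAAACT in 65.4% of those that fell in siTBX2-AS1, against 20.4%. The motifs were picked from an earlier analysis of these libraries, so the shares are a description. Of the matrix genes that fell in siTBX2, POSTN and VWDE hold CAGAATG and LUM and TNFAIP6 do not, and NID1, which fell in siTBX2-AS1, holds TTAAACT. Each site is given below with 10 bases on either side from the longest GENCODE release 29 3′ UTR, the motif in capitals.
POSTN: tttgtactctCAGAATGtttgtcatat
VWDE: ggaacactgtCAGAATGctttctgtca
NID1: tggtaaattcTTAAACTgtggaaacca

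Other matrix genes also hold these motifs. Of 41 matrix genes 6 held CAGAATG, and COL5A1 (0.07), COL6A2 (0.16), LAMC1 (-0.04) and DCN (-0.44) were not called in siTBX2. Of 8 with TTAAACT, NID1 was the sole call in siTBX2-AS1 in the edgeR fit without the block. The others were COL1A2 (0.44), COL3A1 (0.12), COL4A2 (-1.68), COL6A1 (0.29), LUM (-0.23), HAS2 (-0.68) and FBN1 (-0.05). HAS2 was called lower with the block (adjusted p = 0.00655) and COL4A2 by limma-voom (adjusted p = 0.0474). The part of the motifs in these changes was not tested.

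Some matrix genes also differed between replicate numbers in the same way in every group. In 17 of 41 genes (41.5%) the same number was highest in all 3 groups, beside 27.1% of all tested genes, and number 1 was highest throughout in 11 (26.8%, beside 11.3%). The labels do not say what a number marks. ELN and DCN are given as examples chosen after their values were seen. ELN, the gene of elastin, was at 24.8, 12.9 and 6.22 CPM in siNTC, at 26.9, 11.6 and 5.9 in siTBX2 and at 28.4, 11.5 and 9.34 in siTBX2-AS1, so replicate 1 was 3.04 to 4.57 times replicate 3 within each group. DCN, the gene of decorin, was instead highest in replicate 3, at 27.5, 25.4 and 53.5 CPM in siNTC, at 18.5, 20.1 and 39.9 in siTBX2 and at 16.3, 17.2 and 41.4 in siTBX2-AS1. Its neighbour on chromosome 12, LUM, varied less, from 126.7 to 127.8 CPM in siNTC.

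**Figure D4:**
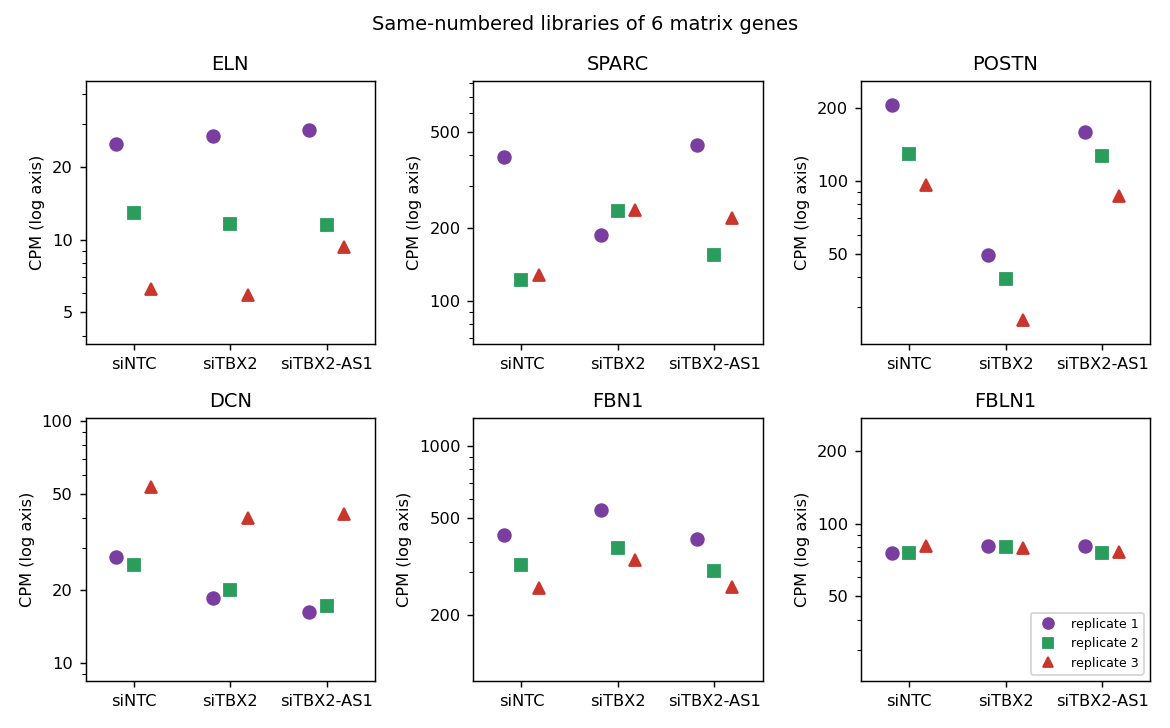
CPM of 6 matrix genes in each library (log axes of equal span), coloured by replicate number. Replicate 1 of ELN, POSTN and FBN1 and replicate 3 of DCN are highest in all 3 groups, SPARC has a high replicate 1 in siNTC and siTBX2-AS1, and FBLN1 lies close together.

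Replicate 1 was also highest throughout in COL3A1, COL6A2, COL6A3, LAMB1, LAMB2, NID2, VCAN, HAS2, POSTN and FBN1. COL3A1 was at 992.7, 710.5 and 707.2 CPM in siNTC, at 1056, 681.3 and 722.9 in siTBX2 and at 1096, 699.6 and 822.4 in siTBX2-AS1. COL6A3 was at 587.9, 465.3 and 473.5, at 548.6, 473.1 and 411.1 and at 574.1, 434.3 and 412.4 CPM in the same order. In both, the groups overlapped and replicate 1 was highest in each. SPARC was at 393, 121.8 and 128.2 CPM in siNTC, at 187.2, 236.1 and 237.4 in siTBX2 and at 441.8, 154.4 and 220.5 in siTBX2-AS1, so its replicate 1 was high in siNTC and siTBX2-AS1 and low in siTBX2, and its changes within a number ran from -1.07 to 0.96 in siTBX2. MGP, an inhibitor of calcification, was likewise uneven, from 2.09 to 7.54 CPM in siNTC and from 2.27 to 13.6 in siTBX2.

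Of 23 tested genes for collagen processing enzymes and chaperones, 2 fell in siTBX2, ADAMTS3, which cleaves the ends of procollagen (log2 fold change -0.51, SE 0.08, adjusted p = 0.0262), and the lysyl hydroxylase gene PLOD2 (-0.50, adjusted p = 0.0497). Both also fell in siTBX2-AS1 (ADAMTS3 -0.53, adjusted p = 0.00907; PLOD2 -0.50, adjusted p = 0.0285), which shares its controls, with COLGALT2, a collagen galactosyltransferase (-0.49, adjusted p = 0.0156), while CRTAP, part of the prolyl 3-hydroxylation complex, rose (0.70, SE 0.10, adjusted p = 0.00799). The median of the list was 0.05 in siTBX2 and 0.11 in siTBX2-AS1. With the replicate number as a block, 8 were called in siTBX2-AS1 in place of 4, by the added SERPINH1 (adjusted p = 0.0198), PPIB (0.0272), COLGALT1 (0.0332) and FKBP10 (0.0429), all with positive log2 fold changes. In siTBX2 the block called 3, by the added FKBP10 (adjusted p = 0.0496). Beside the counts of this list and those below, 1.61% of all tested genes were called in siTBX2 and 4.57% in siTBX2-AS1. Between the knockdowns the share was 5.53%. The block raised the first 2 shares to 4.75% and 9.48%. Genes that the block alone called are named here and below after their values were seen, with log2 fold changes from the fit without the block and adjusted p from the fit with it.

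Of 14 tested collagen genes outside the 47, 3 fell in siTBX2, COL16A1 (-1.05, SE 0.18, adjusted p = 0.0321), COL19A1 (-1.17, SE 0.21, adjusted p = 0.0387) and COL6A6 (-1.06, SE 0.20, adjusted p = 0.0451), and the basement membrane chain COL4A5 fell in siTBX2-AS1 (-0.66, SE 0.14, adjusted p = 0.0371). None rose in either, and the list medians were -0.39 and -0.44. Their summed level was 271 to 288 CPM in siNTC, 199 to 218 in siTBX2 and 229 to 247 in siTBX2-AS1, without overlap between the groups. The block called 4 in siTBX2, by the added COL4A5 (adjusted p = 0.0395), and 4 in siTBX2-AS1, by the added COL6A6 (0.0158), COL19A1 (0.0198) and COL28A1 (0.0434), all with negative log2 fold changes. Of 34 further glycoprotein and proteoglycan genes none was called in siTBX2 by edgeR, with 4 at an unadjusted p under 0.05, 3 by DESeq2 and 1 by limma-voom. With the block 4 were called, all with negative log2 fold changes: FBLN7 (adjusted p = 0.0162), EMILIN3 (0.0362), EFEMP2 (0.041) and LAMB3 (0.0415). In siTBX2-AS1 the laminin alpha 2 gene LAMA2 fell (-1.01, SE 0.18, adjusted p = 0.0188) and LOXL3, a lysyl oxidase, rose (0.41, adjusted p = 0.041). The block called 5 there, by the added THBS3 (0.54, adjusted p = 0.00585), MATN2 (0.45, adjusted p = 0.0268) and TGFBI (-1.40, adjusted p = 0.0269).

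**Figure D5:**
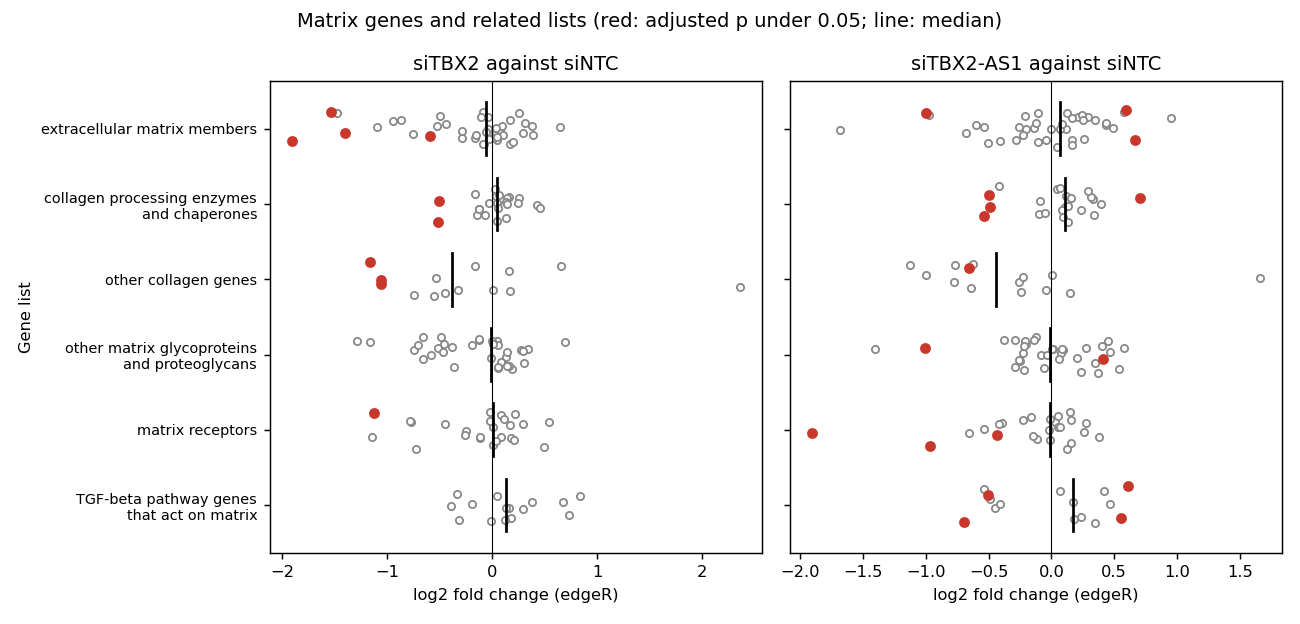
Log2 fold change of the 41 tested matrix genes and of 5 related lists in siTBX2 (left) and siTBX2-AS1 (right). Red points had an adjusted p under 0.05, black lines are medians, and the other collagen genes have the lowest medians, -0.39 and -0.44.

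Among 25 tested matrix receptor genes, ITGA1, the alpha chain of the collagen-binding integrin alpha 1 beta 1, fell in both knockdowns, from 232 ± 33.2 CPM to 106 ± 1.28 in siTBX2 (-1.13 on the log2 scale, SE 0.11, adjusted p = 0.00716) and to 119 ± 9.8 in siTBX2-AS1 (-0.97, SE 0.11, adjusted p = 0.00256). In siTBX2-AS1 ITGAV, the alpha chain of vitronectin and fibronectin receptors (-0.44, SE 0.06, adjusted p = 0.00762), and the collagen receptor chain ITGA2 (-1.90, SE 0.41, adjusted p = 0.0379) fell too. The block added ITGA4 in siTBX2 (-0.77, adjusted p = 0.029), for 2 calls, and ITGA5 (-0.39, adjusted p = 0.0309) and HMMR (-0.41, adjusted p = 0.0461) in siTBX2-AS1, for 5. Of 15 tested TGF-beta pathway genes that act on matrix none was called in siTBX2, with 1 at an unadjusted p under 0.05 and 0 by DESeq2 or limma-voom. In siTBX2-AS1 the receptor genes TGFBR2 (0.61, adjusted p = 0.0171) and TGFBR3 (0.56, adjusted p = 0.0182) rose and the signal transducer SMAD4 (-0.70, adjusted p = 0.0171) and the SMAD corepressor SKIL (-0.51, adjusted p = 0.0468) fell. Between the knockdowns ITGAV, ITGA2, HMMR and SMAD4 were lower in siTBX2-AS1 and CRTAP, COL16A1, FBLN7, ITGA4 and TGFBR2 were higher, while LAMA2 was lower.

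Several of these calls did not hold in every fit that left out 1 library. Calls of all genes dropped in these fits as well, in siTBX2 from 295 to between 44 and 177. In siTBX2, leaving out any library ended those of PLOD2 (adjusted p = 0.0572 to 0.169) and COL19A1 (0.0514 to 0.121), and that of COL6A6 ended without any but siTBX2-AS1 replicate 3 (0.0277 to 0.147). ADAMTS3 was called without each siTBX2-AS1 library only (0.0298 to 0.0917) and COL16A1 without siTBX2-AS1 replicate 1 or siNTC replicate 2 only (0.0286 to 0.121). In siTBX2-AS1, LOXL3 was called in none of the 9 such fits, COL4A5 and ITGA2 in 2, SKIL in 3, LAMA2 and TGFBR3 in 4, PLOD2, COLGALT2 and TGFBR2 in 5 and SMAD4 in 7. ITGA1 in both, and ITGAV, CRTAP and ADAMTS3 in siTBX2-AS1, kept their calls in all 9 fits. By limma on log2 of FPKM plus 0.1 or 1, ITGA1 was called in both. In siTBX2-AS1, ITGAV (adjusted p = 0.119 and 0.117), CRTAP (0.13 and 0.125) and ADAMTS3 (0.122 and 0.115) were not. Between the knockdowns ITGA2 was called in 1 of the 9 fits (0.00929 to 0.147), CRTAP (0.02 to 0.126), COL16A1 (0.0142 to 0.122) and HMMR (0.0204 to 0.128) in 2 and ITGA4 in 3 (0.0188 to 0.106), and LAMA2, FBLN7, ITGAV, SMAD4 and TGFBR2 in all 9. Limma on FPKM also called SMAD4 and TGFBR2 there, but not LAMA2, FBLN7 or ITGAV.

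Fibroblast markers were present in part, and markers of the other cell types were mostly low or absent. Of 10 fibroblast markers 5 were tested. In siNTC PDGFRB was at 62.6, THY1 at 41.9, S100A4 at 41.4, PDGFRA at 23.1 and ACTA2 at 3.01 CPM. DPT, TCF21 and MFAP5 were at 0 in every library, FAP at most 0.174 and PDPN at most 0.132 CPM. The sum of the 10 was 167 to 177 CPM in siNTC, 128 to 163 in siTBX2, below siNTC, and 162 to 191 in siTBX2-AS1. None of the 5 tested was called (edgeR). The endothelial sum was 3.64 to 5.02 CPM in siNTC, 1.84 to 3.25 in siTBX2 and 1.24 to 2.63 in siTBX2-AS1, with 4 of 10 tested and CDH5, KDR and CLDN5 at no more than 0.072 CPM. Of these markers the transcription factor gene ERG fell in siTBX2 (-3.71, adjusted p = 0.0131) and siTBX2-AS1 (-1.85, adjusted p = 0.0445). ERG made up much of the siNTC sum, at 2.63 CPM, against 0.196 in siTBX2 and 0.722 in siTBX2-AS1. VWF alone of the 4 tested had a positive log2 fold change in siTBX2, from 0.643 CPM in siNTC to 1.58, without a call. It was at 0.298 CPM in siTBX2-AS1, lower than in siTBX2 (-2.35, adjusted p = 0.0349). Sums of Schwann and melanocyte markers (6 of 10 tested) were 13.2 to 14.3, 15.5 to 23.9 and 14.1 to 22.8 CPM, with SOX10, TYR and CDH19 at 0, and those of leukocyte markers (3 of 10 tested) were 2.44 to 3.27, 1.55 to 4.85 and 1.91 to 4.16, with CD3E, CD3D and LYZ at 0. The part of these markers in the matrix changes was not tested.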

How the data were processed

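The authors deposited a pair of tables that were used here. The first holds expected counts, estimated reads per gene as whole numbers that needed no rounding, and the second FPKM, scaled by the authors to transcript length and mapped fragments. Per the submitters' processing notes the tools were FastQC, STAR 2.4.2a and StringTie 1.3.3 with build hg19. The annotation, the counting step and its use of strand are not given in the sources used here. Per the labels' protocols, libraries were stranded and depleted of ribosomal RNA.

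Counts were tested in R 4.3.3 with edgeR 4.0.16 (filterByExpr, which left 18367 of 57757 genes, TMM scaling, robust quasi-likelihood F tests on all 9 libraries, Benjamini-Hochberg adjustment over all tested genes). SE is the log2 fold change divided by the square root of F. CPM values use TMM-scaled totals. The fit was checked on simulated counts. These were drawn without an effect of the replicate number, so the check does not cover the correlations given below. Labels name 3 biological replicates per group without saying whether they were separate cultures, so p values measure the spread between these samples. Deviations from group means correlated between libraries with the same replicate number, at 0.136 to 0.241 (siNTC and siTBX2) and 0.104 to 0.243 (siNTC and siTBX2-AS1). With unlike numbers they correlated at -0.219 to -0.00781 and -0.187 to -0.00406. The blocked fit is therefore given beside these comparisons where it changed a call.

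Alternatives were DESeq2 1.42.0 size factors and tests, scaling by upper quartiles, testing every gene with a count, a floor of 1 CPM in 3 libraries, limma-voom (limma 3.58.1), fits of only the groups compared, the replicate block, limma on log2 of FPKM plus 0.1 or 1, and leaving out each library. Symbols were found for 51945 gene IDs. Positions and 3′ UTRs were read from GENCODE release 29 on GRCh38, by gene ID, not from the build of the files. Each tested matrix gene is named; values per library are given for genes called in a comparison, for those with unadjusted p under 0.05 and an absolute log2 fold change of 0.5 or more against siNTC, and for the 5 highest in siNTC; up to 4 called genes are named per related list and comparison. Members, roles and lists were chosen with earlier results of these data known.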

Additional observations from a re-analysis of the deposited data

How the results depend on the processing

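Directions were compared across the alternatives only for the targets, matrix genes with unadjusted p under 0.05 and called genes of the related lists. None reversed, but genes picked for a clear change could hardly do so. Directions of the other matrix genes were not compared. With the replicate block, called matrix genes went from 4 to 10 in siTBX2, from 3 to 8 in siTBX2-AS1 and from 5 to 12 between the knockdowns, and all called genes from 295 to 873, from 840 to 1741 and from 1015 to 2084. Between the knockdowns, libraries with the same number correlated at 0.0728 to 0.219 and those with unlike numbers at -0.163 to 0.0238. The labels do not say what a number marks, so a pairing is not established in any comparison. DESeq2 called 7 matrix genes in siTBX2 and 9 between the knockdowns, and 1053, 1609 and 1966 genes in all. Fits of only the groups compared called 1 matrix gene in each knockdown and 52 and 461 genes in all. Limma on log2 of FPKM plus 0.1 or 1 called 1 matrix gene in each knockdown, and 33 and 36 genes in siTBX2, 352 and 345 in siTBX2-AS1 and 437 and 463 between them. Without a filter 184 genes were called in siTBX2. Without 1 library, matrix calls were 1 to 3 in siTBX2, 1 to 2 in siTBX2-AS1 and 3 to 5 between the knockdowns, and calls of all genes 44 to 177, 402 to 654 and 469 to 918. TBX2-AS1 in siTBX2-AS1 lost its call without a filter (log2 fold change -3.25, adjusted p = 0.058) and with only the groups compared (-3.27, 0.0668), and ranged from -3.71 to -2.79 without 1 library. Fits that leave out groups or libraries have fewer samples; for the other settings the cause was not tested. Depth limits COL4A2, COL11A1 and FMOD, and 6 of 47 genes could not be tested.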
